A study of Danio rerio with 13 samples.

Results

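The genes described here were 6 sarcomere genes of heart muscle, myl7, cmlc1, tnnt2a, tnnc1a, myh7 and mybpc3. They were taken as the probe sets whose platform annotation gave 1 of these symbols and no other, which were 6 of 15502 probe sets (6 of 8793 named genes), 1 for each gene. A further probe set, annotated to myh7 together with its neighbour myh7l, was left out. RNA had been measured on 13 Affymetrix zebrafish arrays, 1 for each heart preparation, and the deposited values were linear signal intensities. Hearts had been purified from embryos at 3 days of age. The groups were embryos given a morpholino (an antisense oligonucleotide that blocks its target RNA) against atg5 (3 arrays), becn1 (3 arrays) or atg7 (2 arrays), embryos given a control morpholino (2 arrays), and uninjected embryos (3 arrays). All 3 targets are core genes of autophagy, the pathway by which cells enclose and digest their own contents, and the question was what each knockdown changed in the heart. Injection was at the 1-cell stage, so a knockdown was not limited to the heart. The labels give no strain, no number of embryos for a preparation and no morpholino sequence, so p-values reflect only how far these preparations spread. An array is called by its group with the number its title carries, such as atg5 1. The control morpholino group has arrays numbered 2 and 3, and none numbered 1 was analysed here.

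The sarcomere is the repeating unit of striated muscle, in which thick filaments of myosin pull on thin filaments of actin. Each myosin heavy chain carries an essential and a regulatory light chain. Calcium starts contraction by binding troponin C, and troponin T ties the troponin complex to tropomyosin on the thin filament. In zebrafish, myl7 (also named cmlc2) encodes the cardiac regulatory light chain and cmlc1 an essential light chain of the heart. The myh7 probe set is the one for vmhc, the ventricular myosin heavy chain. tnnt2a encodes cardiac troponin T, whose loss in zebrafish gives a heart that does not beat, and tnnc1a encodes cardiac troponin C. mybpc3 encodes cardiac myosin binding protein C, which lies along the thick filament and modulates its motors.

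Levels below are log2 intensities after quantile normalization of the 13 arrays, and 1 unit is a doubling. The level 4, an intensity of 16, marks weak signals, whose differences have no exact size. All 6 probe sets passed the intensity filter, which asked that a probe set exceed the 40th percentile of an array on 2 or more of the 13. tnnc1a met it on 2 arrays alone, atg5 1 and atg7 1, and lay under 16 on 9 of 13 arrays. mybpc3 met it on 3 arrays, atg5 1, atg7 1 and uninjected 1, and lay under 16 on 7 arrays. These 2 genes therefore passed only through arrays where they were high. The other 4 genes were above 16 on every array. Levels of different probe sets are not compared with each other.

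The 3' over 5' signal, a sign of RNA integrity, was measured for GAPDH and acta1. For GAPDH it was 2.39 to 2.67 on the knockdown arrays numbered 1. It was 5.98 on atg7 2 and 2.30 to 3.28 on the remaining arrays. For acta1 it was 19.9, 11.4 and 14.8 on atg5 1, becn1 1 and atg7 1. It was lower there than on atg5 2 (27.4), atg5 3 (20.8), becn1 2 (22.9) and atg7 2 (86.2), but higher than on becn1 3 (8.03). On the control morpholino arrays the acta1 value was 28.86 and 29.86, higher than on the 3 knockdown arrays numbered 1. On uninjected 1 it was 20.09, also higher than on these 3, and on uninjected 2 and uninjected 3 it was 14.21 and 12.01, within their range. The part of RNA integrity in the levels of the sarcomere genes was not tested. Of cardiac muscle marker names, 12 of 17 had a probe set here and 7 of these 12 were above 16 on every array. Among them tnnt2a, myl7, cmlc1, myh7 and mybpc3 are genes described here, and vmhc names the myh7 probe set again. These counts are therefore no independent check of the tissue. Outside these genes, actc1a and hand2 were above 16 on every array. The cardiac transcription factors nkx2.5, tbx5a, tbx20 and gata4 were under 16 on 10, 12, 13 and 13 arrays. nppa, nppb, myh6 and tnni1b had no named probe set here. Of 14 measured skeletal muscle marker names, 13 were above 16 on every array, so skeletal muscle transcripts were measured in every preparation. No deposited intensity was 0.

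The 3 knockdown arrays numbered 1 stood apart in these genes from the other 5 knockdown arrays, whichever gene had been targeted. All 6 genes were higher on atg5 1, becn1 1 and atg7 1 than on every other knockdown array, as were 4 of the 4 that were above 16 throughout, while 7.89% of the 10307 probe sets tested were higher in that way and 7.77% lower. The median difference between these 3 and the other 5 knockdown arrays was 2.26 log2 units over the 6 genes and -0.01 over all probe sets. That median includes the weak genes tnnc1a and mybpc3, which passed the filter only through arrays where they were high. For the 4 genes above 16 throughout, the difference ran from 1.94 (myh7) to 2.93 (cmlc1). The array number was not an experimental factor, and the choice to show these arrays apart was made with their values known, so no test is given for this split. More heart muscle in a preparation and more of these RNAs per muscle cell cannot be told apart in bulk RNA.

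**Figure D1:**
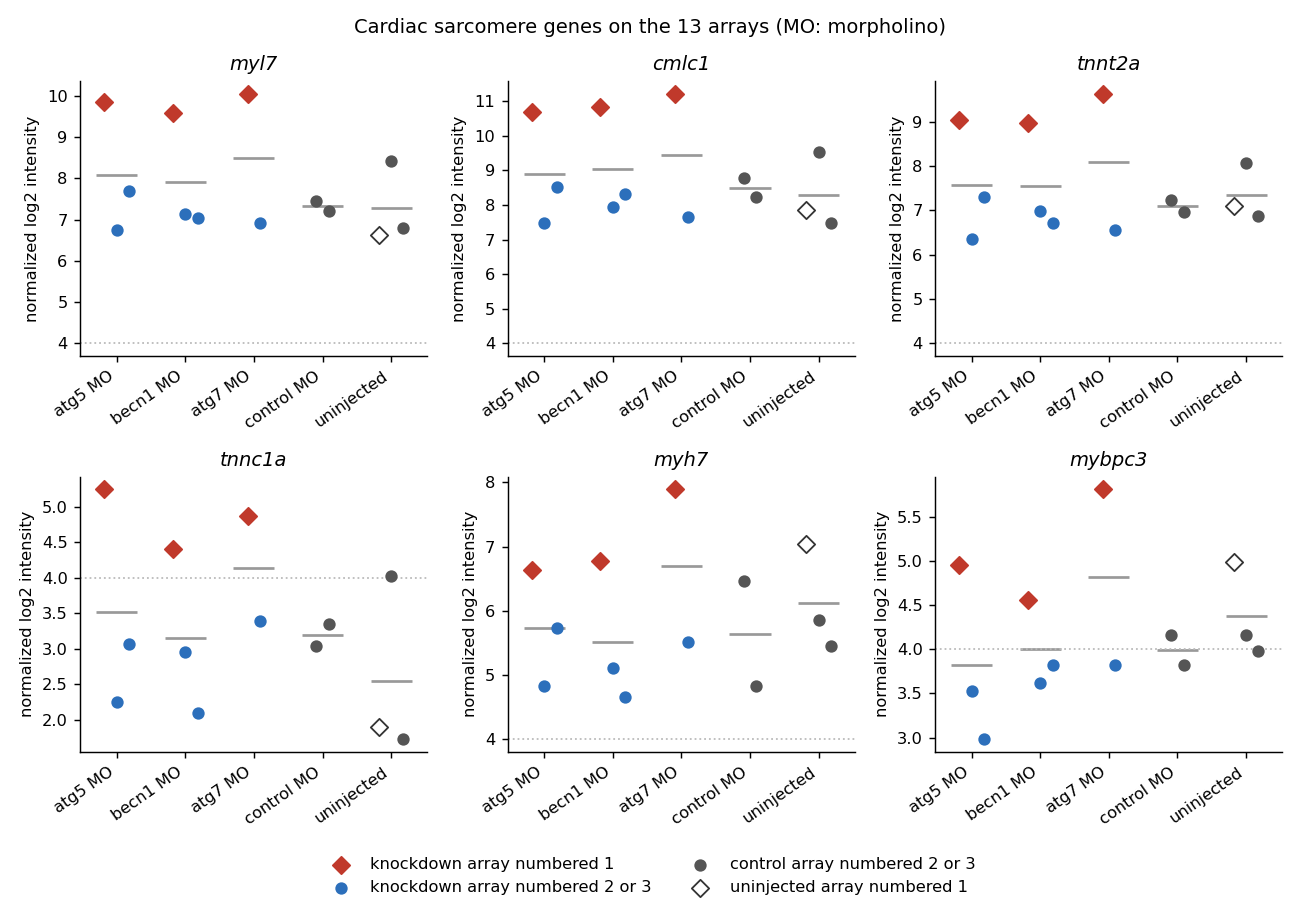
Normalized log2 intensity (y axis, a separate scale for each gene) of the 6 genes on the 13 arrays, by group (x axis, MO: morpholino). Each point is 1 array, grey bars are group means and the dotted line marks an intensity of 16; the red knockdown arrays numbered 1 lie above the blue knockdown arrays for every gene, and myl7 is at 9.59 to 10.06 on them against 6.74 to 7.69.

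Of the light chains, myl7 had levels of 9.84 on atg5 1, 9.59 on becn1 1 and 10.06 on atg7 1. It had 6.74 and 7.69 on atg5 2 and atg5 3, 7.14 and 7.03 on becn1 2 and becn1 3, and 6.91 on atg7 2. On the control morpholino arrays it had 7.46 and 7.21, and on the uninjected arrays 6.63, 8.43 and 6.80. The 3 knockdown arrays numbered 1 were the highest of all 13, and the other 5 knockdown arrays lay within the range of the control arrays. Uninjected 1, which carries the same number, was the lowest of the 13. As deposited, before any normalization, the intensities were 776, 875 and 1147 on the 3 knockdown arrays numbered 1 and 94.2 to 428 on the other 10. Knockdown arrays numbered 1 were 2.73 log2 units (6.62-fold) above the other knockdown arrays.

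cmlc1, the essential light chain, had levels of 10.70 on atg5 1, 10.83 on becn1 1 and 11.23 on atg7 1. The other 5 knockdown arrays had 7.48, 8.51, 7.96, 8.32 and 7.64, from atg5 2 to atg7 2 in the order used for myl7. The control morpholino arrays had 8.79 and 8.22 and the uninjected arrays 7.84, 9.53 and 7.48. The gap to the next array, uninjected 2, was 1.17 log2 units. The difference of 2.93 between the knockdown arrays numbered 1 and the other knockdown arrays (7.64-fold) was the third highest of the 10307 probe sets, and that of myl7 the ninth.

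In the thin filament, tnnt2a had levels of 9.03, 8.98 and 9.64 on atg5 1, becn1 1 and atg7 1. It had 6.36 to 7.30 on the other 5 knockdown arrays. The control morpholino arrays had 7.24 and 6.96 and the uninjected arrays 7.11, 8.07 and 6.88. The knockdown arrays numbered 1 were again above all 10 others, by 0.91 at the closest, and were 5.41-fold above the other knockdown arrays (2.43 log2 units). tnnc1a, the calcium sensor of the same complex, was weak. Its levels were 5.25, 4.41 and 4.87 on atg5 1, becn1 1 and atg7 1, 2.1 to 3.40 on the other knockdown arrays, 3.04 and 3.35 with control morpholino, and 1.90, 4.03 and 1.73 uninjected. Its deposited intensities were 23.4 to 32.3 on the knockdown arrays numbered 1 and 4.14 to 10.2 on the other knockdown arrays. The knockdown arrays numbered 1 were again the highest, and only 1 of the 10 other arrays, uninjected 2, was above 16, so the order of the others has no support. With intensities under 16 set to 16, the difference was 0.84 log2 units (1.80-fold).

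In the thick filament, myh7 had levels of 6.64 on atg5 1, 6.77 on becn1 1 and 7.89 on atg7 1. It had 4.83 and 5.73 on the other atg5 arrays, 5.10 and 4.65 on the other becn1 arrays and 5.51 on atg7 2. The control morpholino arrays had 6.46 and 4.83 and the uninjected arrays 7.05, 5.86 and 5.45. Here the knockdown arrays numbered 1 were 3.83-fold above the other knockdown arrays (1.94 log2 units) but overlapped the controls, since uninjected 1 exceeded both atg5 1 and becn1 1. mybpc3, whose protein binds that myosin, had 4.96, 4.56 and 5.81 on the knockdown arrays numbered 1 and 2.98 to 3.82 on the other 5. It had 4.16 and 3.82 with control morpholino and 4.98, 4.16 and 3.98 uninjected. Uninjected 1 was also its highest control array and exceeded atg5 1 and becn1 1. With intensities under 16 set to 16 its difference was 1.11 log2 units (2.15-fold).

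Against all 10 other arrays, 3 of the 4 genes above 16 throughout (myl7, cmlc1 and tnnt2a) did not overlap, where 3.09% of probe sets were higher and 3.9% lower in that way. The exception was myh7. Of the 2 weak genes tnnc1a did not overlap and mybpc3 did, but both passed the filter only through arrays on which they were high. Relative to the 5 control arrays, the knockdown arrays numbered 1 differed by 2.52 for myl7, 2.54 for cmlc1, 1.96 for tnnt2a and 1.17 for myh7. The other 5 knockdown arrays differed from the same controls by -0.20, -0.39, -0.47 and -0.77 in that order. tnnc1a was under 16 on 4 of the 5 control arrays and mybpc3 on 2. With intensities under 16 set to 16, the differences from the controls were 0.84 for tnnc1a and 0.85 for mybpc3 on the knockdown arrays numbered 1, and -0.0058 and -0.26 on the other 5. Each of the 3 knockdowns had its array numbered 1 above the mean of the controls for all 6 genes.

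Group means carried this split within them. For myl7 the level was 8.09 ± 1.59 in atg5 hearts (SD, n = 3), 7.92 ± 1.44 in becn1 hearts (n = 3) and 8.48 ± 2.23 in atg7 hearts (n = 2). It was 7.33 ± 0.18 with control morpholino (n = 2) and 7.29 ± 0.99 in uninjected hearts (n = 3). The order from high to low was atg7, atg5, becn1, control morpholino, uninjected, and no neighbours in it differed by more than the SD of the higher one. For cmlc1 the means were 8.90 ± 1.64 (atg5), 9.04 ± 1.56 (becn1), 9.43 ± 2.53 (atg7), 8.51 ± 0.40 (control morpholino) and 8.28 ± 1.1 (uninjected). tnnt2a followed with 7.56 ± 1.35, 7.56 ± 1.24, 8.09 ± 2.18, 7.10 ± 0.20 and 7.35 ± 0.63 in the same order of groups. For myh7 they were 5.73 ± 0.90, 5.51 ± 1.12, 6.70 ± 1.68, 5.64 ± 1.15 and 6.12 ± 0.83. The mean was highest in atg7 hearts for all 6 genes, and there 1 of 2 arrays was numbered 1, against 1 of 3 in the atg5 and becn1 groups.

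None of the 6 genes differed from the control morpholino past the threshold of limma's test in any knockdown. The test was fitted to all 13 arrays with p-values adjusted by Benjamini and Hochberg over 10307 probe sets. In atg5 hearts 0 of 6 genes were called at an adjusted p under 0.05, as were 0% of all probe sets (0 of 10307, and 248 at an unadjusted p under 0.05). In becn1 hearts 0 of 6 were called, with a background of 0% (544 at an unadjusted p under 0.05). In atg7 hearts 0 of 6 were called, where 0.0582% of all probe sets were (6 of 10307, and 1035 at an unadjusted p under 0.05). At an unadjusted p under 0.05 the count was also 0 of 6 in each.

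In atg7 hearts the differences from control morpholino were 1.15 for myl7 (SE 1.15), 0.93 for cmlc1 (SE 1.24), 0.99 for tnnt2a (SE 1.00), 1.06 for myh7 (SE 0.89) and 0.82 for mybpc3 (SE 0.70), all higher, with adjusted p from 0.688 to 0.804 by limma. The 95% interval of the myl7 difference ran from -1.33 to 3.63 and that of myh7 from -0.88 to 3.00. In atg5 hearts myl7 differed by 0.76 (SE 1.05) and myh7 by 0.08 (SE 0.82), with 5 of 6 genes higher and an adjusted p of 1 for all 6. In becn1 hearts myl7 differed by 0.59 (SE 1.05) and myh7 by -0.14 (SE 0.82), with 4 of 6 genes higher and adjusted p from 0.966 to 0.998. These comparisons share the 2 control morpholino arrays.

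These directions depended on the arrays numbered 1. For all 6 genes the array numbered 1 was the highest of its knockdown, so leaving it out had to lower these differences. The values that follow describe how far they fell. Leaving out atg5 1 alone turned the atg5 difference of cmlc1 to -0.51 and of myl7 to -0.11, and 0 of the 5 genes then tested were higher. Leaving out becn1 1 alone gave -0.37 for cmlc1 and -0.25 for myl7 in becn1 hearts, with 0 of 6 genes higher. Leaving out atg7 1 alone gave -0.86 for cmlc1 and -0.43 for myl7 in atg7 hearts, with 0 of 5 higher. Whenever atg7 1 was left out, the atg7 group was atg7 2 alone, the array with the highest GAPDH 3' over 5' signal (5.98). Without all arrays numbered 1, uninjected 1 included, myl7, cmlc1, tnnt2a and myh7 still passed the filter, and 0 of these 4 were higher than with control morpholino in any of the 3 knockdowns. None of these differences was called either. The myh7 direction also turned on single control morpholino arrays. Without control morpholino 3 its difference was -0.73 in atg5 hearts and -0.95 in becn1 hearts. Without control morpholino 2 it was 0.89 and 0.67.

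**Figure D2:**
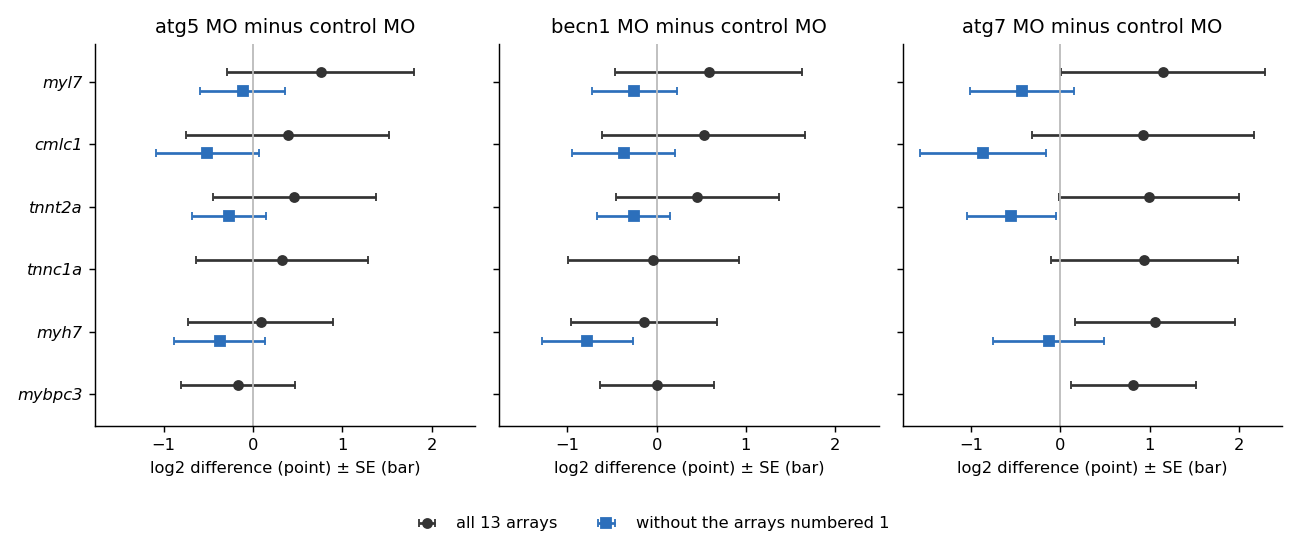
Log2 difference of each knockdown from control morpholino (MO) for the 6 genes, as the limma estimate (point) with its standard error (bar), from all 13 arrays (black circles) and without the arrays numbered 1 (blue squares, where tnnc1a and mybpc3 did not pass the filter). For cmlc1 in atg7 hearts the estimate is 0.93 with all arrays and -0.87 without those numbered 1.

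With the 3 knockdowns pooled at equal weight, 0 of 6 genes were called against control morpholino, with a background of 0% (0 of 10307, and 559 at an unadjusted p under 0.05). The differences were 0.83 for myl7 (SE 0.91), 0.62 for cmlc1 (SE 0.99), 0.64 for tnnt2a (SE 0.80) and 0.34 for myh7 (SE 0.71). As measured they were 0.41 for tnnc1a and 0.22 for mybpc3, and the 6 genes had adjusted p from 0.913 to 0.964 by limma. With weak intensities set to 16, which that test did not use, tnnc1a had 0.33 and mybpc3 0.39. Without all arrays numbered 1 the differences were -0.26 for myl7 (SE 0.41), -0.58 for cmlc1 (SE 0.49), -0.36 for tnnt2a (SE 0.35) and -0.43 for myh7 (SE 0.43). The standard errors were smaller than with all arrays for these 4 genes. As the highest array of each knockdown was thereby left out, lower differences were fixed in advance.

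Against uninjected hearts, the pooled knockdowns had 0 of 6 genes called, where 1.22% of all probe sets were (126 of 10307). That background rested on single arrays: it was 0 probe sets without uninjected 1 and also without uninjected 3, and 876 without becn1 3. The differences were 0.88 for myl7 (SE 0.78), 0.84 for cmlc1 (SE 0.85), 0.38 for tnnt2a (SE 0.68) and -0.14 for myh7 (SE 0.61), with adjusted p from 0.375 to 0.910 over the 6 genes. For the weak genes, intensities under 16 set to 16 gave 0.32 for tnnc1a and 0.09 for mybpc3. Leaving out the 3 knockdown arrays numbered 1, an alternative added after the data were seen, gave -0.22 for myl7, -0.35 for cmlc1, -0.61 for tnnt2a (SE 0.30) and -0.90 for myh7 (SE 0.44), with adjusted p from 0.235 to 0.757. Injection itself was compared by setting control morpholino against uninjected hearts, where 0 of 6 genes were called with a background of 0% (266 at an unadjusted p under 0.05). There myl7 differed by 0.04 (SE 1.05), cmlc1 by 0.22 (SE 1.14), tnnt2a by -0.25 (SE 0.92) and myh7 by -0.47 (SE 0.82).

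Between knockdowns, becn1 against atg5 hearts gave 0 of 6 genes called with a background of 0% (630 at an unadjusted p under 0.05). atg7 against atg5 hearts gave 0 of 6 with a background of 0.0194%, and atg7 against becn1 hearts 0 of 6 with a background of 0.0194%. The atg7 values were higher for 6 of 6 genes in both, by 0.97 over atg5 (SE 0.82) and 1.19 over becn1 (SE 0.82) for myh7. Leaving out atg7 1, the higher atg7 array for every gene, turned them to 0 of 5 and 1 of 5 higher, with atg7 2 as the only atg7 array left. Same-numbered arrays of different knockdowns had deviations from group means that correlated over 0.1 in 7 of 7 pairs, which are not independent. The atg5 and becn1 arrays numbered 2 and 3 correlated higher across numbers than within them, so these numbers were not shown to pair. With the replicate number as a block, 0 of 6 genes were again called in each of these 3 comparisons, and the counts over all probe sets were 0 for becn1 against atg5, 1 for atg7 against atg5 and 0 for atg7 against becn1. The myh7 difference was then -0.22 for becn1 against atg5 (SE 0.39), 0.61 for atg7 over atg5 (SE 0.45) and 0.83 for atg7 over becn1 (SE 0.45), with adjusted p from 0.567 to 0.998 by limma.

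Over the 10 arrays other than the knockdown arrays numbered 1, the light chains myl7 and cmlc1 were correlated (Pearson r = 0.93, adjusted permutation p = 0.005, Spearman rho = 0.87, adjusted permutation p = 0.031, 15 gene pairs, 100000 resamples, two-sided). With uninjected 2 and atg5 3, the arrays farthest from the median of myl7, left out, r was 0.85. Troponin T went with both light chains by Pearson's r, at 0.86 with myl7 and 0.87 with cmlc1 (adjusted permutation p = 0.012 each), but Spearman's rho of 0.70 and 0.76 had an adjusted permutation p of 0.093 each. Without the 2 farthest arrays these r were 0.48 and 0.61, and without uninjected 2 alone 0.64 and 0.69. Troponin C had r = 0.78 with myl7 (adjusted permutation p = 0.020, Spearman rho = 0.71, adjusted permutation p = 0.093), but 9 of its 10 levels were under 16. No other pair passed by either measure. For myh7, r was 0.11 with myl7, 0.24 with cmlc1 and 0.48 with tnnt2a, where rho was 0.71 (adjusted permutation p = 0.093). These values depended on uninjected 1, without which r was 0.55, 0.51 and 0.60. mybpc3 was under 16 on 7 of the 10 arrays, so its correlations say little. Differences between correlations were not tested. The 10 arrays came from all 5 groups and were permuted without regard to group or number, so these p-values treat the arrays as exchangeable. No single group holds enough arrays for a correlation of its own.

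Other genes of heart muscle were counted in the same way, and the counts without overlap below stand beside 7.89% of all probe sets higher and 7.77% lower. Of the other cardiac sarcomere genes listed, 8 of 28 had a probe set and 7 passed the filter. The 7 included the actin gene actc1b and the tropomyosin gene tpma, and it was not shown that these genes are limited to heart muscle. Between the knockdown arrays numbered 1 and the other knockdown arrays 3 of the 7 did not overlap, all 3 of them higher, and the median difference of the 7 was 0.24. They were actc1a, an actin of heart muscle, at 10.33 to 10.98 against 8.88 to 10.06 (difference 1.17), ttn.2, a titin gene, with a difference of 1.12, and tpm4a, a tropomyosin, with 0.62, named here because they did not overlap. A summed level here is the log2 of the summed intensities of a list's genes, in which the brightest probe sets weigh most. For the 7 genes it was 12.2 to 12.8 log2 units on the knockdown arrays numbered 1 and 12.1 to 13.2 on the other knockdown arrays. It was 12.4 to 12.8 with control morpholino and 12.6 to 13.3 uninjected. None of the 7 was called in any comparison with control morpholino or uninjected hearts. In the pooled knockdowns, 2 of the 7 were higher than with control morpholino (median difference -0.27) and 0 of the 7 higher than in uninjected hearts (median -0.71). The tropomyosin tpm1 differed by -0.71 from control morpholino (SE 0.42) and by -1.05 from uninjected hearts (SE 0.36, adjusted p = 0.106 by limma). For tpma these differences were -0.49 (SE 0.54) and -1.29 (SE 0.46, adjusted p = 0.117 by limma). These 2 thin filament genes thus had the opposite sign to tnnt2a without being called.

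The counts below are of list genes that passed the filter. Among 8 Z-disc and sarcomere assembly genes, unc45b, a myosin chaperone, and hsp90aa1.1, a chaperone of striated muscle in zebrafish, were higher on the knockdown arrays numbered 1 without overlap, by 1.02 and 0.50, and none was lower. Among 7 genes of calcium handling and excitation, the calcium pump gene atp2a2a (1.15) and the calsequestrin gene casq2 (0.97) were higher, and the potassium channel gene kcnh2a and the kinase gene camk2d1 (-1.11 each) lower. Of the 13 arrays, casq2 was under 16 on 4 and atp2a2a on 2, so the sizes of these 2 differences are not exact. Of 10 genes of cardiac metabolism and membranes, 0 were higher and 2 lower without overlap, dspa and jupa, both of cell junctions. Of 9 heart transcription factors, gata5, gata6, hand2 and mef2ca were higher, by 1.09, 1.22, 1.05 and 0.61, and isl1a was lower (-0.95). These genes were likewise named because they did not overlap. In the pooled comparison with uninjected hearts, mef2d (-1.12, SE 0.23) and mef2aa (-1.01, SE 0.22) fell (adjusted p = 0.049 each by limma), and no other gene of these 4 lists was called in a pooled comparison. Both calls were borderline: over 25 alternative settings mef2d was called in 9 and mef2aa in 8, lower in all, with adjusted p up to 0.213 and 0.219, and leaving out uninjected 1 or uninjected 3 ended both.

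**Figure D3:**
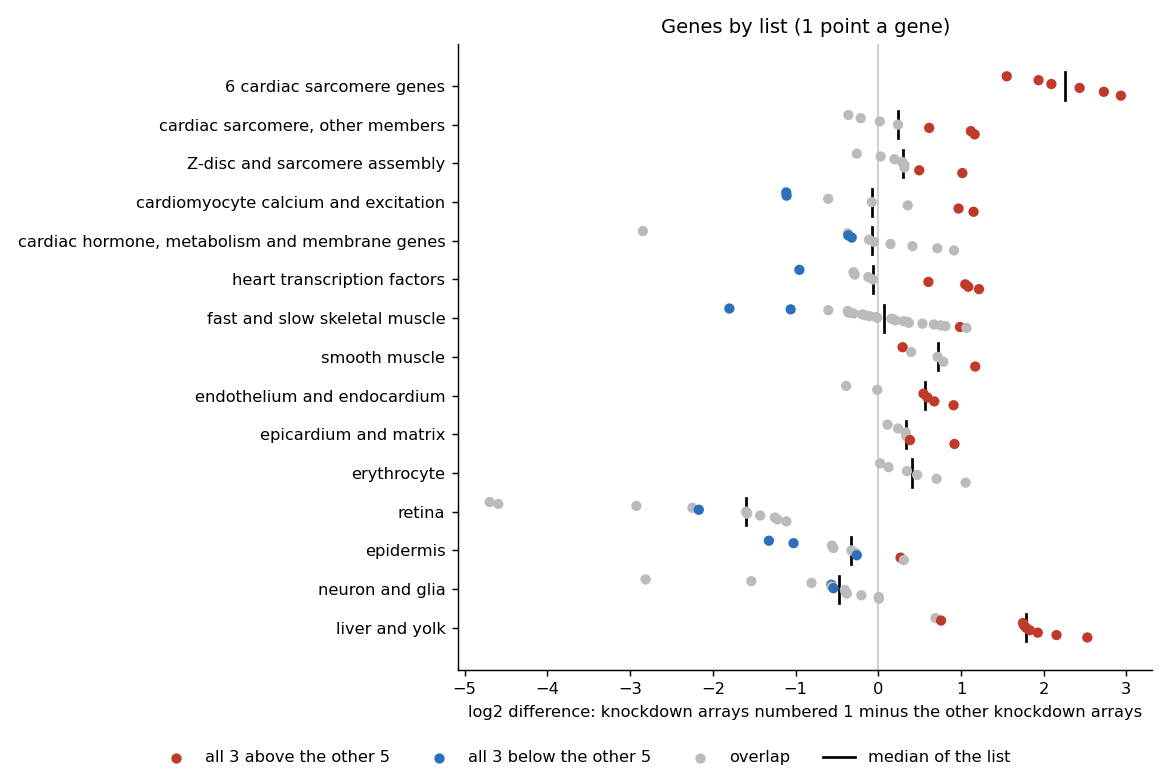
Log2 difference (x axis) between the 3 knockdown arrays numbered 1 and the other 5 knockdown arrays, 1 point for each gene, for the 6 genes and 14 lists of genes of heart structures and of other tissues. Red and blue points are genes whose arrays do not overlap, grey points overlap, and black bars are medians: 2.26 for the 6 genes, 1.79 for liver and yolk, 0.07 for skeletal muscle and -1.60 for retina. The 2.26 includes the weak genes tnnc1a and mybpc3, with intensities under 16 kept as measured.

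Genes of other tissues were measured on the same arrays. Fast and slow skeletal muscle genes, which a preparation could hold from trunk muscle, had 1 of 24 higher and 2 of 24 lower without overlap, near the 7.89% and 7.77% of all probe sets, and a median difference of 0.07. Their summed level was 12.5 to 13.2 on the knockdown arrays numbered 1 and 12.7 to 14.2 on the other knockdown arrays, ranges that overlap. It was 12.9 to 14.0 with control morpholino and 13.2 to 14.6 uninjected. The contrast between skeletal muscle genes and the sarcomere genes of the heart was not tested. Liver and yolk genes did move with the array number. Of 9, 8 were higher without overlap and the ninth was higher with overlap, with a median of 1.79. Their summed level was 13.64 to 13.88 on the knockdown arrays numbered 1, 12.65 to 13.02 on the other knockdown arrays, 13.40 to 14.20 with control morpholino and 13.55 to 14.27 uninjected. On the knockdown arrays numbered 1, 0 of these 9 genes lay above all of the other 10 arrays. Neither did myh7 or mybpc3, while myl7, cmlc1 and tnnt2a did, as did 3.09% of all probe sets. The weak gene tnnc1a did too, but it passed the filter only through arrays where it was high.

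Beside the same 7.89% higher and 7.77% lower, of 6 endothelial and endocardial genes 4 were higher without overlap (fli1 by 0.91 and kdrl, a receptor of blood vessel cells, by 0.68), of 5 smooth muscle genes 2 (acta2 by 1.17), and of 6 epicardial and matrix genes 2. Erythrocyte genes had 0 of 6 without overlap. Retina genes were lower, with a median of -1.60 and 1 of 11 without overlap, and their summed level was 7.17 to 10.37 on the knockdown arrays numbered 1, 9.26 to 11.16 on the other knockdown arrays, 11.93 to 12.53 with control morpholino and 11.53 to 12.87 uninjected. The neuron and glia genes had a median of -0.47, with 2 of 12 lower. Epidermis genes had 1 of 9 higher and 3 of 9 lower. The part of these other tissues in the levels of the sarcomere genes was not tested.

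**Figure D4:**
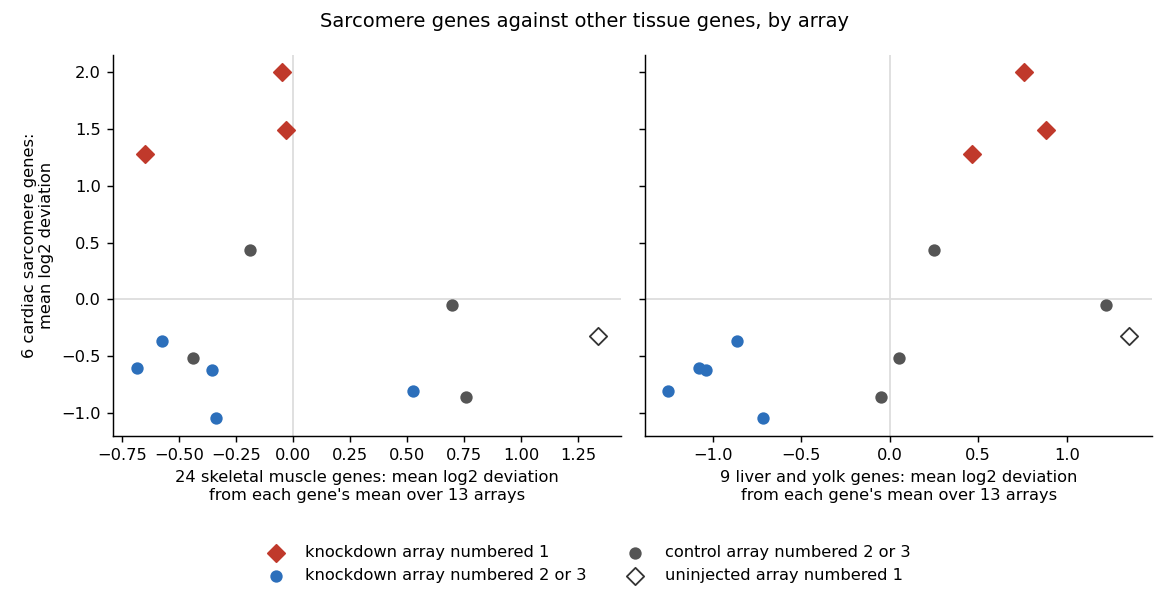
Mean log2 deviation of the 6 sarcomere genes (y axis) against that of 24 skeletal muscle genes (left, x axis) and 9 liver and yolk genes (right, x axis), each gene taken relative to its own mean over the 13 arrays. Each point is 1 array: the 3 red knockdown arrays numbered 1 are highest on the y axis in both panels, while uninjected 1 (open diamond) is highest on both x axes and below 0 on the y axis. The y axis includes the weak genes tnnc1a and mybpc3, with intensities under 16 kept as measured. Uninjected 1 mixes low levels of myl7 (6.63) and tnnc1a (1.90) with the highest control levels of myh7 (7.05) and mybpc3 (4.98).

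The probe sets most like each gene over all 13 arrays, by Pearson's r and leaving out the 6 genes, were mostly not of muscle. For myl7 they were hlx1, a homeobox gene (r = 0.96), nras, a small GTPase gene (r = 0.96), and ins, insulin (r = 0.95). For cmlc1 they were cldc1 (r = 0.96), hlx1 and nras, and for tnnt2a hlx1 (r = 0.97), ehd1b and ins. For tnnc1a they were sst2, a somatostatin gene (r = 0.93), sdhdb and nkx2.3. For myh7 they were nradd (r = 0.89), anxa6 and snai2. For mybpc3 the first was atp2a2a (r = 0.91), the calcium pump gene named above, before tktb and paics. Insulin was 10.49 to 10.80 on the 3 knockdown arrays numbered 1 and 8.36 to 10.24 on the other 10, and sst2 was 9.42 to 10.28 against 6.81 to 8.71. Over the 10 arrays without the knockdown arrays numbered 1, r in the order named was 0.81, 0.94 and 0.85 for myl7. It was 0.85, 0.71 and 0.84 for cmlc1 and 0.86, 0.75 and 0.84 for tnnt2a. For tnnc1a it was 0.96, 0.80 and 0.80, for myh7 0.78, 0.93 and 0.76, and for mybpc3 0.81, 0.82 and 0.89. The genes were chosen by r over 13 arrays that include these 10, so these values are not independent of that choice. Of the 13 arrays, tnnc1a was under 16 on 9, mybpc3 on 7 and atp2a2a on 2. Both tnnc1a and mybpc3 passed the filter only through arrays where they were high, so their r values say little.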

How the data were processed

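Hearts of zebrafish embryos at 3 days were measured on 13 1-colour arrays. The authors deposited linear signal intensities made with MAS5, per the submitters' processing notes; no version or scaling target is given in the sources used here, and the labels' extraction protocol names tumors where the other labels name hearts. Array becn1 3, titled becn, was read as becn1.

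Controls (115 of 15617 probe sets) were removed. Of 15502 others, 10795 had 1 gene symbol, 135 several and 4572 none. Log2 intensities were quantile normalized, and 10307 probe sets (66.5%) were above the 40th percentile of an array on 2 or more arrays. Group means of all 13 arrays were fitted with limma 3.58.1 (R 4.3.3) with a trended prior variance (degrees of freedom 8 residual, 4.61 prior), and two-sided tests took Benjamini-Hochberg adjustment across 10307 probe sets. Correlations used permutations in scipy 1.17.1. Older gene names came from RefSeq. The limma fit was tested on simulated data, for atg7 and for pooled knockdowns against control morpholino. The simulated noise was independent between arrays, without a shift shared by same-numbered arrays, and the correlations were not covered. The number of arrays limits the precision.

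The 6 genes and the lists (14 lists, 154 of 279 genes with a probe set) were chosen with earlier results of these data known. Named were the 6 genes, up to 4 called genes of a list or the 2 with the smallest p, and the 3 probe sets most correlated with each of the 6 genes. Other genes are named as chosen after their values were seen. Alternatives covered scaling, filter, floor, pseudocount, replicate block, variance model, array weights, samples in the fit, pooled controls and each array left out.

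Deviations from group means were correlated between same-numbered arrays. The correlation was over 0.1 in 7 of 7 pairs of knockdown arrays (0.12 to 0.62). These pairs are not independent, since deviations are centred within each group and those of the 2 atg7 arrays mirror each other. Between atg5 and becn1, which share 3 numbers, the arrays numbered 1 had 0.42. However, atg5 2 had 0.12 with becn1 2 and 0.34 with becn1 3. Likewise atg5 3 had 0.14 with becn1 3 and 0.21 with becn1 2. The numbers 2 and 3 were thus not shown to pair knockdown arrays, and the block is given as an alternative only. The correlation was over 0.1 in 5 of 15 pairs with a control array (-0.41 to 0.41), so numbers were not taken to pair knockdown and control arrays.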

Additional observations from a re-analysis of the deposited data

How the results depend on the processing

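The 6 genes were tested under 27 alternative settings, and 0 of the 860 differences so obtained were called. Of these, 101 had the opposite sign to the value reported, 61 of them outside the settings that left out 1 array. The cause was not tested, beyond which arrays a setting left out. On the knockdown arrays numbered 1, 6 of 6 genes lay above the other knockdown arrays without overlap on the deposited scale, with trimmed mean scaling, the floor, the pseudocount and each array left out. This count took all 6 genes whether or not they passed the filter in a setting. Of them, tnnc1a and mybpc3 passed it only through arrays where they were high. The share over all probe sets was not computed for these settings. Since these arrays were set apart with their values known, the count is a description. Differences that turned are given as log2 values, each knockdown against control morpholino unless another pair is named.

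Without all arrays numbered 1, the atg5 differences were -0.51 for cmlc1, -0.37 for myh7, -0.11 for myl7 and -0.27 for tnnt2a; those for becn1 were -0.37 for cmlc1, -0.25 for myl7 and -0.25 for tnnt2a; those for atg7 were -0.87 for cmlc1, -0.13 for myh7, -0.43 for myl7 and -0.55 for tnnt2a. Pooled knockdowns had -0.58 for cmlc1, -0.43 for myh7, -0.26 for myl7 and -0.36 for tnnt2a, and against uninjected hearts -0.57 for cmlc1, -0.55 for myl7 and -0.74 for tnnt2a. Control morpholino against uninjected had -0.28 for myl7. Without only the 3 knockdown arrays numbered 1, chosen after seeing the data, pooled knockdowns against uninjected had -0.35 for cmlc1, -0.22 for myl7 and -0.61 for tnnt2a. With both control groups also taken as 1 they had -0.44 for cmlc1, -0.71 for myh7, -0.24 for myl7 and -0.51 for tnnt2a.

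With the replicate number as a block, pooled knockdowns had -0.16 for cmlc1, -0.31 for mybpc3, -0.37 for myh7, -0.12 for tnnc1a and -0.016 for tnnt2a. atg5 had -0.27 for cmlc1, -0.50 for myh7, -0.10 for tnnc1a and -0.095 for tnnt2a, becn1 had -0.13 for cmlc1, -0.44 for mybpc3 and -0.10 for tnnt2a, and atg7 had -0.090 for cmlc1. Control morpholino against uninjected had 0.060 for mybpc3, 0.11 for myh7 and 0.31 for tnnt2a. Same-numbered knockdown and control arrays were not shown to pair, and 7 of 13 arrays correlated best with their own number. The block moved the count of all probe sets called from 126 to 327 for pooled knockdowns against uninjected and from 0 to 28 against control morpholino.

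On the deposited scale atg5 had 0.011 for mybpc3, becn1 had 0.095 for myh7 and 0.24 for tnnc1a, and control morpholino against uninjected had -0.10 for cmlc1 and -0.28 for myl7. Trimmed mean scaling gave -0.00053 for myh7 in atg5 and -0.088 for mybpc3 in becn1. The floor at 16 gave 0.24 for mybpc3 in atg5, 0.14 for tnnc1a in becn1, 0.088 for mybpc3 in pooled knockdowns against uninjected and -0.0097 for tnnc1a in control morpholino against uninjected, and the pseudocount of 16 gave 0.057 for tnnc1a in becn1. Array weights gave -0.054 for mybpc3 in pooled knockdowns, -0.10 for tnnc1a in atg5 and -0.17 for mybpc3 in becn1. Both control groups taken as 1 gave -0.012 for mybpc3 in pooled knockdowns, -0.20 for myh7 in atg5, and -0.22 for mybpc3 and 0.35 for tnnc1a in becn1.

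Leaving out 1 array at a time, the differences that turned at least once ranged as follows. For atg5 they were cmlc1 -0.51 to 1.1, mybpc3 -0.74 to 0.25, myh7 -0.73 to 0.89, myl7 -0.11 to 1.43 and tnnt2a -0.27 to 1.07. For becn1 they were cmlc1 -0.37 to 1.07, mybpc3 -0.27 to 0.20, myh7 -0.95 to 0.67, myl7 -0.25 to 1.03, tnnc1a -0.67 to 0.49 and tnnt2a -0.25 to 0.88. For atg7 they were cmlc1 -0.86 to 2.72, mybpc3 -0.18 to 1.80, myh7 -0.13 to 2.24, myl7 -0.43 to 2.73 and tnnt2a -0.55 to 2.54. Each end of these atg7 ranges rests on the 1 atg7 array left. For pooled knockdowns they were mybpc3 -0.11 to 0.55 and myh7 -0.48 to 1.14. For pooled knockdowns against uninjected they were mybpc3 -0.50 to 0.16, myh7 -0.53 to 0.33 and tnnt2a -0.13 to 0.90. For control morpholino against uninjected they were cmlc1 -0.18 to 0.85, myh7 -1.28 to 0.34, myl7 -0.28 to 0.62 and tnnt2a -0.49 to 0.11.

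Over all probe sets, the count called moved with the setting: from 0 to 279 for pooled knockdowns against control morpholino (0 reported), 0 to 981 against uninjected (126 reported, 0 without uninjected 1 or uninjected 3), 0 to 137 for atg7 (6 reported), 0 to 25 for becn1 (0 reported), 0 to 15 for atg7 against atg5 and 0 to 4 for atg7 against becn1 (2 reported each). The weak signals of tnnc1a and mybpc3 limit the size of their differences.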

Other observations

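Over the 10 arrays other than the knockdown arrays numbered 1, the 2 thick filament genes were correlated with genes of other tissues by Pearson's r. The mean level of 24 skeletal muscle genes had a Pearson r of 0.76 with mybpc3 (adjusted permutation p = 0.023 over 12 relations) and of -0.33 with myl7 and -0.07 with cmlc1. With myh7 it had r = 0.56, which did not pass (adjusted permutation p = 0.227). The mean level of 9 liver and yolk genes had r = 0.77 with mybpc3 and 0.80 with myh7 (adjusted permutation p = 0.023 each), and r = 0.08 with myl7. By Spearman's rho 0 of the 12 relations passed (adjusted permutation p from 0.103), with rho = 0.75 for mybpc3 and skeletal muscle. Without the 2 arrays farthest from the median of the list, r was 0.53 for mybpc3 and skeletal muscle, 0.51 for mybpc3 and liver and 0.33 for myh7 and liver, and without uninjected 1 alone it was 0.56, 0.62 and 0.67. mybpc3 was under an intensity of 16 on 7 of the 10 arrays, so its levels there have no exact size and its correlations say little. The differences between these correlations were not tested, and the permutations again took no account of group.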
